A study of Mus musculus with 36 samples.

Results

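The microRNAs (miRNAs) miR-150, miR-155 and miR-146, known as regulators of lymphocytes, were followed in a mouse pre-B cell line for 24 h after the transcription factor Ikaros was sent to the nucleus. Every mature miRNA whose name held miR-150, miR-155, miR-146a or miR-146b was taken, with either arm of the hairpin. This gave 7 of the 469 miRNAs in the table, namely mmu-miR-155-5p (the prefix mmu, for mouse, is left out below), miR-155-3p, miR-146a-5p, miR-146a-3p, miR-146b-5p, miR-146b-3p and miR-150-5p. The data comprised 36 small RNA libraries of total RNA from the B3 line, with 3 samples per line and time at 0, 2, 6, 12, 18 and 24 h. In the Ikaros line, an MSCV retrovirus drove HA-tagged Ikaros joined to ERt2, a tamoxifen-binding domain of the estrogen receptor, together with GFP from the same transcript. In the control line the same vector held ERt2 and GFP without Ikaros. Both lines were populations sorted for GFP from the one B3 parent, and 4-hydroxy-tamoxifen (4-OHT) releases the fusion protein into the nucleus. The labels give 0.5 uM 4-OHT to all samples, whereas the methods of the study describe the 0 h cells as untreated. The Ikaros fusion was present in the Ikaros line at every time, 0 h included.

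Within a time, samples of both lines with the same number (1, 2 or 4) came from the same culture batch. The 0 h samples came from culture batches 4, 5 and 6 and all later samples from batches 1, 2 and 3, so a change from 0 h within a line cannot be told apart from a change of culture batch. Per the study, the control samples of 2 h to 18 h were sequenced mostly in another batch than the Ikaros samples. The authors corrected the table for it, so at these times line and sequencing batch cannot be told apart except through that correction. The study also reports a batch effect between Ikaros time points before the correction. Changes with time within the Ikaros line therefore rest on that correction too. As all samples derive from a single cell line, the p-values measure the spread between cultures of these 2 lines. The 4 blood miRNAs used to check the label were all abundant, between 12.08 and 19.24 on the log2 scale. Of 15 miRNAs of other cell types, myeloid and erythroid ones among them, 9 were not among the rows of the table. MiR-9-5p, known from neurons, stood at 12.69 to 13.87, and the other 5 reached at most 7.62. MiR-9-5p is also in the list of immune activation used below, and miR-126a-3p, an endothelial marker here, in that of B-cell development. The table holds normalised log2 values without counts, so the depth of the libraries is unknown from it.

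MiRNAs guide the Argonaute protein to messenger RNAs that match their seed, bases 2 to 8 from the 5′ end, and lower the amount of protein made. MiR-155 is made from the noncoding transcript of the Mir155hg locus (BIC) and is induced when B cells, T cells and macrophages are activated. MiR-146a is induced by NF-kB and dampens the same pathway through its targets Traf6 and Irak1, and miR-146b is a separate gene with the same seed. MiR-150 is typical of mature resting lymphocytes and represses Myb. A hairpin yields a 5p and a 3p arm, of which one usually accumulates and the other is mostly degraded.

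The mature sequences show which of these miRNAs can address the same targets. They were found in RefSeq (GRCm38.p6) for 6 of the 7, all but miR-150-5p, and the seed is in capitals.
miR-155-5p: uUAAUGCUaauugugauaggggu
miR-155-3p: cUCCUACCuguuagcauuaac
miR-146a-5p: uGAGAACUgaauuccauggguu
miR-146b-5p: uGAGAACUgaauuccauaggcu
miR-146a-3p: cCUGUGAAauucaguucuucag
miR-146b-3p: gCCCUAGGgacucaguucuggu
The 5p arms of miR-146a and miR-146b shared the seed and 20 of 22 bases, and differed only at G18A and U21C (miR-146a base, position from the 5′ end, miR-146b base). How reads that fit both were assigned is not given in the sources used here, so the separation of the pair is uncertain to that extent. The 3p arms of these 2 hairpins had different seeds, as did the arms of miR-155. No other miRNA of the table had the seed of any of the 6 members with a sequence, among the 391 with a sequence in the reference. The seed of miR-150-5p was not compared.

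On GRCm38, miR-155-5p lies at chr16:84714143-84714165 and miR-155-3p at chr16:84714182-84714202, both on the plus strand in an exon of the long noncoding RNA Mir155hg. MiR-146a-5p lies at chr11:43374435-43374456 and its 3p arm at chr11:43374399-43374420, on the minus strand between genes, with the hairpin 11021 bp from the nearest annotated gene, Gm12148. MiR-146b-5p lies at chr19:46342790-46342811 and its 3p arm at chr19:46342828-46342849, on the plus strand in an intron of the protein-coding gene Mfsd13a. The miR-150 hairpin lies at chr7:45121757-45121821, on the plus strand between genes, 96 bp from the antisense gene Gm45552.

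The 7 miRNAs differed widely in level. MiR-155-5p was the most abundant, with a lowest, median and highest log2 level of 10.16, 10.77 and 11.17 over the 36 samples, which ranked it 43rd to 66th of 469 in its sample. MiR-146a-5p followed at 8.39, 9.10 and 10.48, and miR-146b-5p at 6.13, 6.79 and 7.43. MiR-150-5p stood near the middle of the table, at 3.07, 3.95 and 4.62, and so did miR-155-3p, at 2.70, 4.00 and 4.56. The 3p arms of miR-146b and miR-146a were near the bottom, with medians of 1.65 and 0.73. Of the 36 values of miR-146a-3p, 13 were exactly equal to that of another sample, 11 of them in the Ikaros line, so that its spread there rests on repeated values. In linear terms miR-155-5p held 0.0913% to 0.166% of the summed values of a sample. The 6 members with a sequence in the reference have mature lengths of 21 to 23 bases. Their levels therefore compare without a length correction, though capture in library preparation differs between sequences. The length of miR-150-5p was not available.

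**Figure D1:**
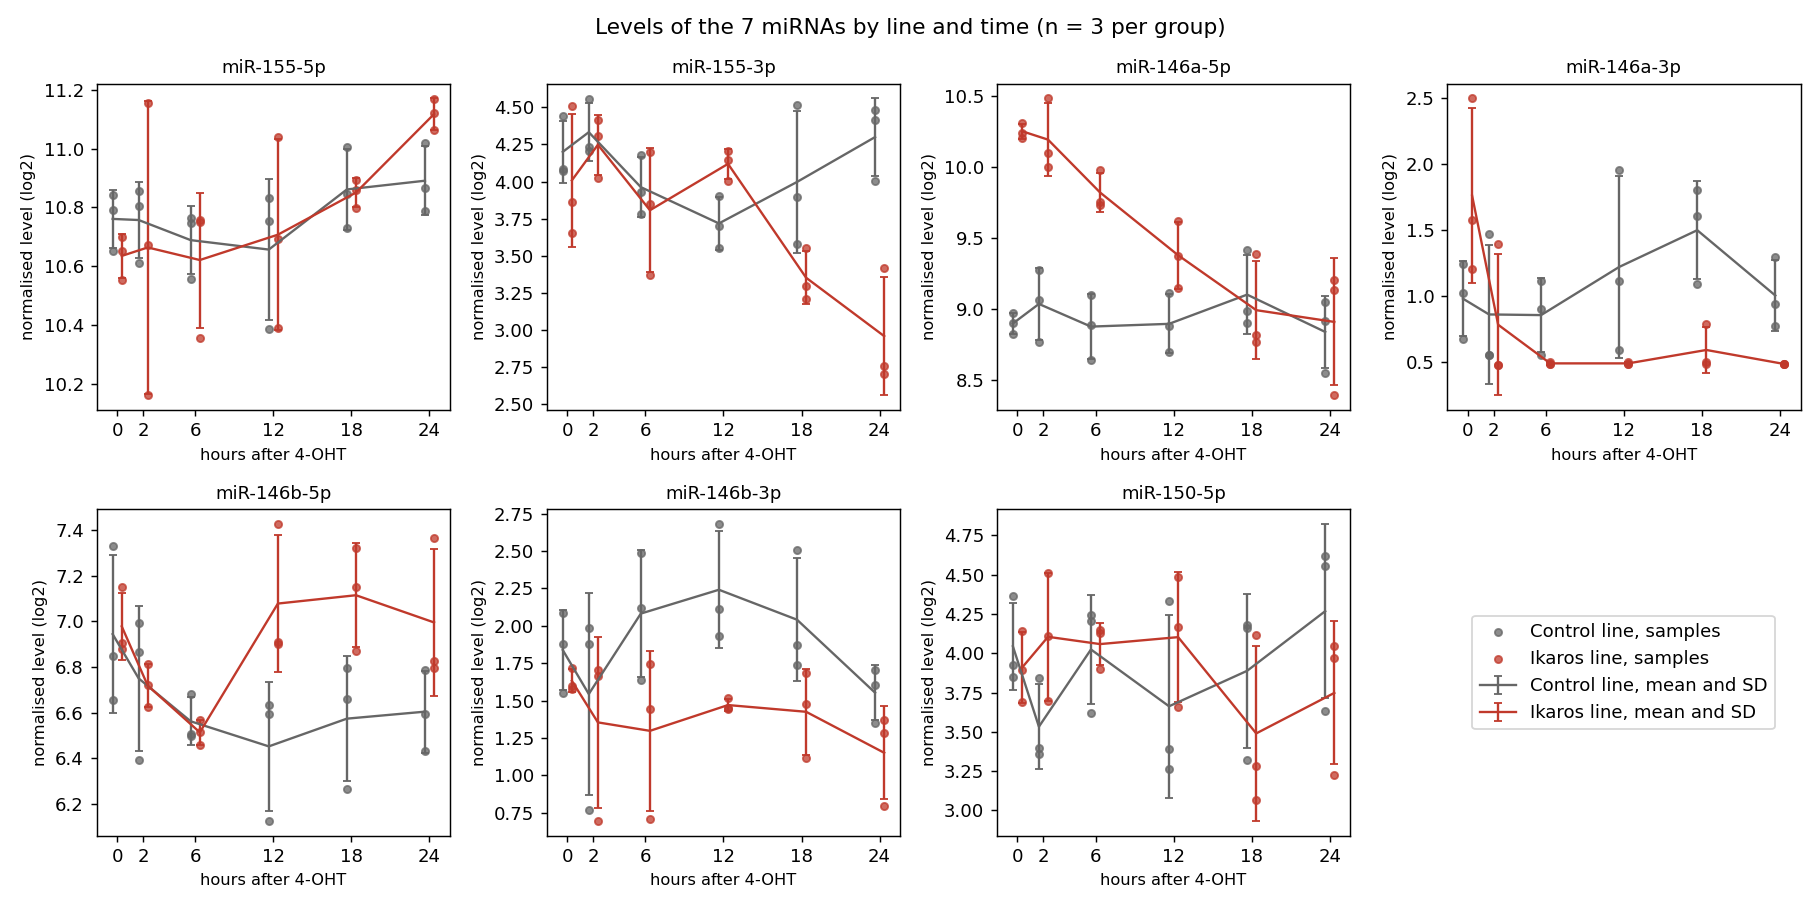
Log2 level (vertical axis) of the members in every sample against hours after 4-OHT (horizontal axis), with points for single samples of the Ikaros and control lines, lines through the means of 3 and error bars of 1 SD. MiR-146a-5p starts near 10.25 in the Ikaros line and ends at 8.91, inside the control range of 8.55 to 9.42, whereas the Ikaros samples of miR-155-3p lie below all control samples of their time at 18 h and 24 h.

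MiR-146a-5p, an NF-kB-induced miRNA, was higher in the Ikaros line at 0, 2 and 6 h and fell there to the level of the control line. At 0 h the Ikaros samples stood at 10.21, 10.24 and 10.31 and the control samples at 8.90, 8.82 and 8.97. All Ikaros samples lay more than 2-fold above the control samples. The line difference at 0 h was 1.36 (SE 0.21, n = 3 per group, 2.56-fold, adjusted p = 3.07e-05, limma with Benjamini-Hochberg adjustment over 469 miRNAs, as for every adjusted p here). It was 1.16 at 2 h (adjusted p = 0.000164) and 0.95 at 6 h (adjusted p = 0.00166). The 6 h call was lost without replicate 2 (0.86, adjusted p = 0.0961) and with linear totals made equal (0.74, adjusted p = 0.0558).

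The decline in the Ikaros line ran over several times. The samples stood at 10.00, 10.09 and 10.48 at 2 h and at 9.73, 9.75 and 9.98 at 6 h. At 12 h they were at 9.37, 9.14 and 9.62, and at 18 h at 8.76, 8.82 and 9.39. All 3 samples of 12 h lay below those of 6 h, and those of 18 h overlapped the control line. At 24 h the Ikaros samples were at 8.39, 9.20 and 9.13 and the control samples at 8.55, 8.91 and 9.05. The line difference was then 0.07 (95% confidence interval -0.35 to 0.50, adjusted p = 0.811). At 12 h it was 0.48, which did not pass the threshold (adjusted p = 0.0971) but did so when culture batch was fitted as a block (adjusted p = 0.0257).

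In the control line, group means ran from 8.84 ± 0.26 (SD, n = 3) at 24 h to 9.10 ± 0.28 at 18 h. Between 2 h and 24 h, times that share culture batches, miR-146a-5p fell by 1.28 on the log2 scale in Ikaros cells (SE 0.21, 2.44-fold, adjusted p = 2.6e-05), and the estimate in control cells was -0.20 (adjusted p = 0.840). The slope over 2 h to 24 h was -0.060 log2 per hour in Ikaros cells and -0.0027 in control cells, a difference of -0.057 (adjusted p = 0.000676). The change of the line difference to 24 h was -1.29 relative to 0 h (SE 0.29, adjusted p = 0.00374) and -1.09 relative to 2 h (adjusted p = 0.0133). The latter lost its call with sample medians subtracted (-0.87, adjusted p = 0.0515) and when only these 4 groups were fitted (adjusted p = 0.0611). Leaving out replicate 1, 2 or 4 in turn, the adjusted p ran from 0.0155 to 0.0950 relative to 0 h and from 0.0629 to 0.127 relative to 2 h. Ordered by mean, the 4 highest of the 12 groups were the Ikaros line at 0, 2, 6 and 12 h. Those of 2 h and 6 h and those of 6 h and 12 h did not overlap, and from 12 h down neighbours in the order overlapped throughout.

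**Figure D2:**
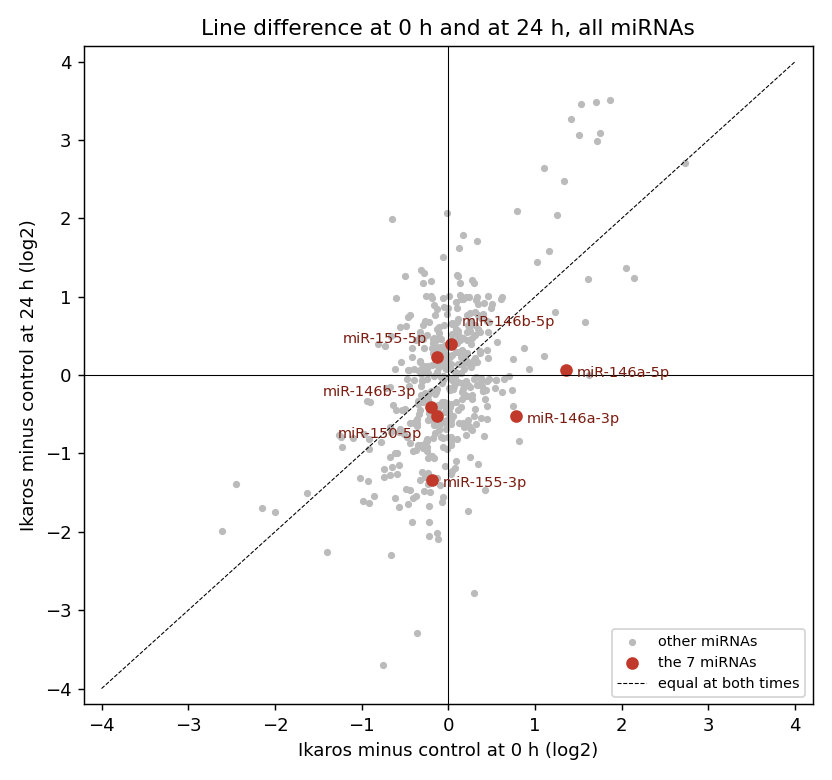
Line difference at 24 h (vertical axis, log2, Ikaros minus control) against that at 0 h (horizontal axis) for the 469 miRNAs, with the members marked and a dashed line where both are equal. MiR-146a-5p lies far right at 1.36 and close to 0 on the vertical axis, and miR-155-3p lies near 0 at 0 h and at -1.34 at 24 h.

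MiR-146b-5p, with the same seed, took another course. At 0 h the lines overlapped, at 6.91, 6.88 and 7.15 in Ikaros cells and 6.66, 6.85 and 7.33 in control cells, with a difference of 0.03 (95% confidence interval -0.39 to 0.45). At 12 h the Ikaros samples were at 7.43, 6.90 and 6.91 and the control samples at 6.60, 6.13 and 6.64. Every Ikaros sample was above every control sample at 12 h, and again at 18 h, where they stood at 7.32, 6.87 and 7.15 against 6.27, 6.66 and 6.80. The line difference passed the threshold at 12 h (0.63, SE 0.21, adjusted p = 0.0294) and at 18 h (0.54, adjusted p = 0.0458), and at 24 h it was 0.39 (adjusted p = 0.127). Both calls were lost in several alternatives, with adjusted p up to 0.314 at 12 h and up to 0.456 at 18 h, the latter without replicate 1 (0.28). These are times at which sequencing batch went with line. At 24 h, with sample medians subtracted, the difference was 0.62 and passed the threshold (adjusted p = 0.0149). The change of the line difference over the 6 times did not pass (adjusted p = 0.279).

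The balance of the 2 seed-sharing miRNAs is given as a description, without a test. MiR-146a-5p minus miR-146b-5p, a log2 difference that any scaling of a whole sample leaves as it is, was 3.27 ± 0.10 (SD, n = 3) in Ikaros cells at 0 h, a ratio of 9.67. It was 3.47 ± 0.19 at 2 h and 3.31 ± 0.19 at 6 h, then 2.30 ± 0.38 at 12 h. At 24 h it was 1.91 ± 0.36, a ratio of 3.76, and the control means over the 6 times ran from 1.95 to 2.53. The Ikaros samples of 0, 2 and 6 h, at 3.16 to 3.67, lay above all 18 control samples, which reached 2.72.

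The 3p arms of both hairpins were among the lowest miRNAs of the table. MiR-146a-3p at 0 h stood at 1.58, 2.50 and 1.21 in the Ikaros line, and at 24 h at 0.48 in all 3 samples, values that were identical. In Ikaros cells it fell by 1.28 on the log2 scale between 0 h and 24 h (adjusted p = 0.00269), a comparison that runs across culture batches and gave an adjusted p of 0.104 without replicate 2. Between the lines, with the values as deposited, it passed only at 18 h, at -0.91 (adjusted p = 0.0287), where the Ikaros samples were at 0.50, 0.79 and 0.48 and the control samples at 1.60, 1.09 and 1.80. That call was lost in the fits that left out replicate 1 or 4, with the medians subtracted and with linear totals made equal. With quantile normalization it also passed at 12 h (-0.87, adjusted p = 0.0372) and in the F-test over the 6 times (adjusted p = 0.0281). The change of its line difference from 0 h to 24 h was -1.30 (adjusted p = 0.0542, 0.0319 with the batch block and 0.0430 with only these 4 groups fitted). MiR-146b-3p passed in none of the 6 line comparisons as deposited, with differences between -0.78 and -0.19, and passed at 12 h with quantile normalization (-0.90, adjusted p = 0.0371).

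MiR-155-5p, the guide arm of the activation-induced miR-155, passed in none of the 6 line comparisons. At 24 h the Ikaros samples were at 11.17, 11.06 and 11.12 and the control samples at 10.79, 11.02 and 10.87. All Ikaros samples of 24 h were above all control samples of that time, yet the difference of 0.23 did not pass (SE 0.18, 95% confidence interval -0.14 to 0.59, adjusted p = 0.340). This value moved with the scaling, to 0.46 with sample medians subtracted (adjusted p = 0.0747) and to 0.081 with linear totals made equal (adjusted p = 0.770). At the other times the line difference lay between -0.13 and 0.05. Within the Ikaros line the slope from 2 h to 24 h was 0.021 log2 per hour (adjusted p = 0.0230). The level was 0.45 higher at 24 h than at 2 h, where the samples spread from 10.16 over 10.67 to 11.16 (adjusted p = 0.0582, and 0.0376 with the batch block). Against 0 h it rose by 0.48 (adjusted p = 0.0399), across culture batches, with an adjusted p of 0.0871 to 0.204 when 1 replicate number was left out. Without replicate 1 the slope was 0.013 and did not pass (adjusted p = 0.225), nor without replicate 2 (adjusted p = 0.246). With all replicates kept, the slope did not pass when only the compared groups were fitted (adjusted p = 0.101). The rise from 0 h did not pass with linear totals made equal (adjusted p = 0.0552) or in limma without a mean-variance trend (adjusted p = 0.0563). The difference between the slopes of the lines was 0.013 (adjusted p = 0.389).

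MiR-155-3p, the lower arm of the same hairpin, fell late in the Ikaros line. At 24 h the Ikaros samples were at 2.76, 2.70 and 3.42 and the control samples at 4.00, 4.41 and 4.48. No Ikaros sample of 24 h reached the lowest of the 18 control samples, 3.55. The line difference was -1.34 (SE 0.25, 2.53-fold lower, adjusted p = 0.000103). At 18 h the Ikaros samples stood at 3.21, 3.30 and 3.55 and the control samples at 3.58, 3.89 and 4.52, with a difference of -0.64 (adjusted p = 0.0543, and 0.0414 with the batch block). From 0 h to 12 h the differences lay between -0.19 and 0.40 and none passed. The 0.40 was at 12 h, where all Ikaros samples lay above all control samples, opposite to the later times (adjusted p = 0.270). The 24 h difference stayed past the threshold in every alternative run, with adjusted p up to 0.0243.

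Between 2 h and 24 h miR-155-3p fell by 1.29 on the log2 scale in Ikaros cells (adjusted p = 0.000353), against -0.03 in control cells (adjusted p = 0.974). Its line difference changed by -1.15 relative to 0 h (SE 0.36, adjusted p = 0.0315) and by -1.26 relative to 2 h (adjusted p = 0.0179). Both lost their call with sample medians subtracted (adjusted p = 0.0787 and 0.0617) and with quantile normalization (0.0548 and 0.0566). Subtracting the medians moved the median of all 469 miRNAs by 0.15 in the first of these comparisons and by 0.22 in the second. The difference of slopes was -0.055 log2 per hour (adjusted p = 0.00530). Leaving out 1 replicate number at a time, the adjusted p ran from 0.0810 to 0.265 relative to 0 h, from 0.0402 to 0.288 relative to 2 h and from 0.0182 to 0.187 for the slopes.

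The distance between the arms of miR-155 is likewise a description without a test. MiR-155-5p minus miR-155-3p was 6.42 ± 0.69 in Ikaros cells at 2 h, 7.50 ± 0.13 at 18 h and 8.16 ± 0.39 at 24 h, a ratio of 285. The control line at 24 h stood at 6.59 ± 0.20, a ratio of 96.4. Each Ikaros sample of 24 h, from 7.71 to 8.41, lay above all 18 control samples, of which the highest was 7.28. Over the 12 group means the levels of the arms had a Pearson correlation of -0.55, a description over groups that share libraries and scaling.

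**Figure D3:**
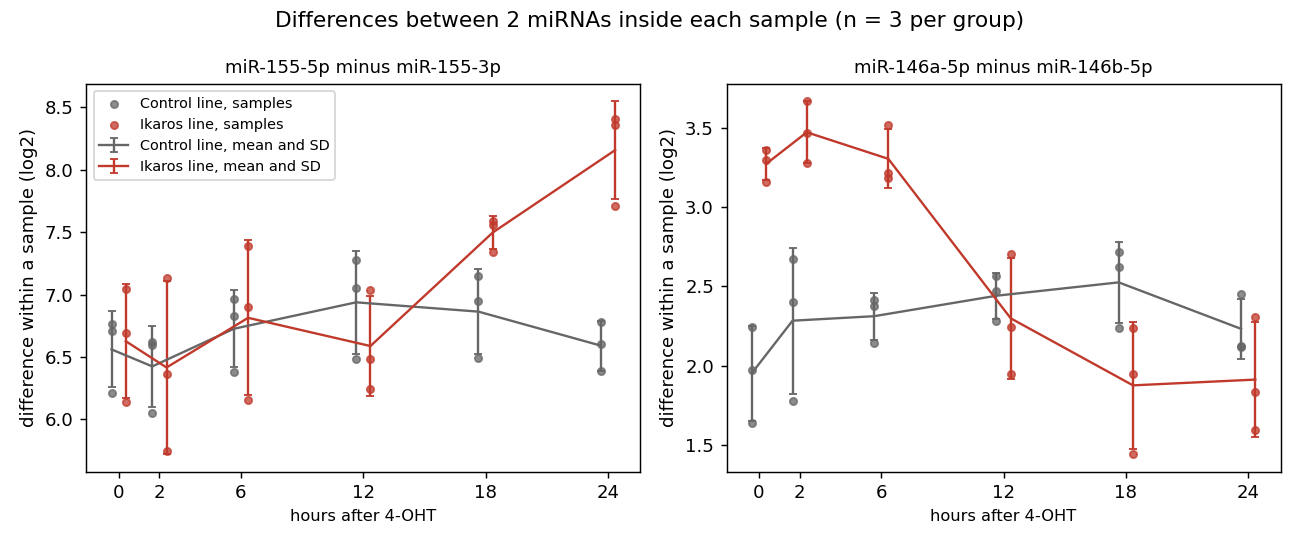
Within-sample log2 differences (vertical axis) between miR-155-5p and miR-155-3p and between miR-146a-5p and miR-146b-5p against hours after 4-OHT (horizontal axis), with points for samples, lines through the means of 3 and error bars of 1 SD. In the Ikaros line the first widens to 8.16 at 24 h and the second narrows from 3.27 at 0 h to 1.91 at 24 h.

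MiR-150-5p, the miRNA of mature lymphocytes, had a low level and passed in no comparison fitted without the batch block. At 24 h the Ikaros samples were at 4.05, 3.22 and 3.97 and the control samples at 3.63, 4.62 and 4.55, so the lines overlapped. The differences over the 6 times lay between -0.52 and 0.57 with an SE of 0.33 and none passed, and at 24 h the 95% confidence interval ran from -1.20 to 0.16. The slopes differed by -0.046 log2 per hour, with the Ikaros line at -0.023 and the control line at 0.023, which passed only with the batch block (adjusted p = 0.0735, and 0.0406 with the block). Relative to 2 h, its line difference at 24 h had changed by -1.09 (adjusted p = 0.116). Single replicates weighed heavily here: the change was -1.72 without replicate 1 and -0.77 without replicate 4, and the 24 h line difference of -0.52 was -0.99 without replicate 1 and -0.082 without replicate 2. No 2 neighbours in the order of its 12 group means were without overlap.

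**Figure D4:**
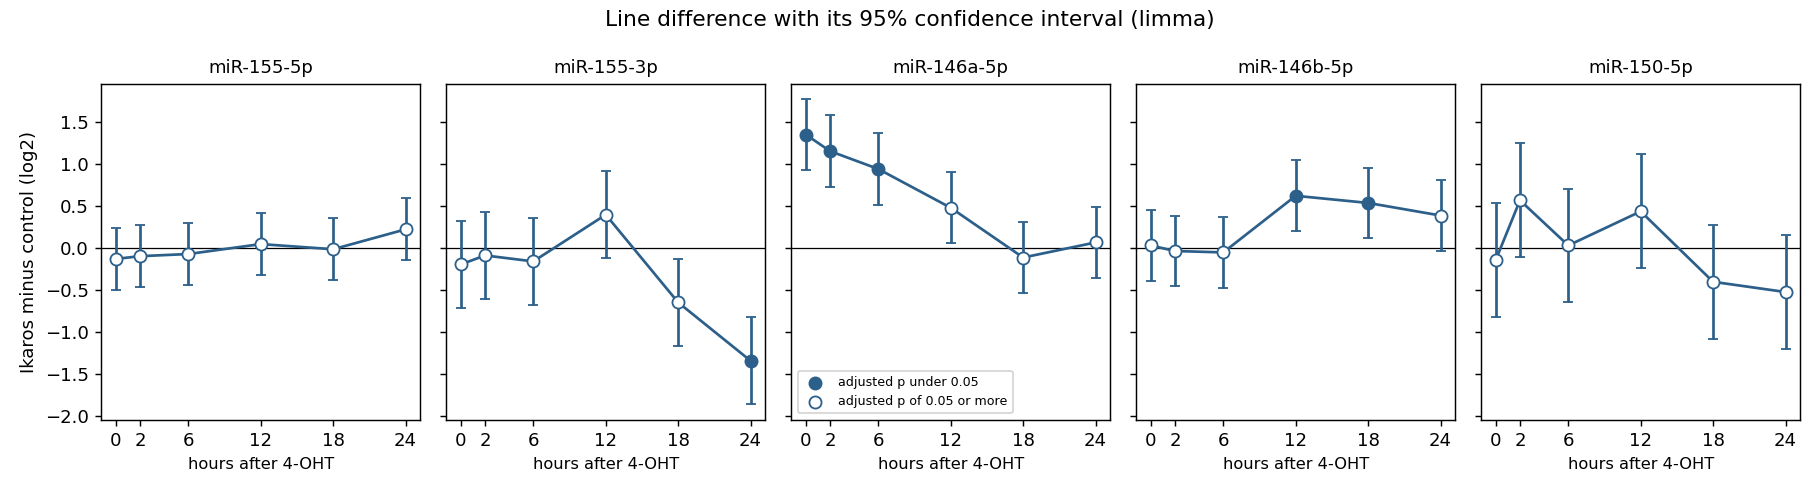
Line difference (vertical axis, log2, Ikaros minus control) with its 95% confidence interval from limma against hours after 4-OHT (horizontal axis) for 5 members. Filled points mark an adjusted p under 0.05, which holds for miR-146a-5p at 0, 2 and 6 h, miR-146b-5p at 12 and 18 h and miR-155-3p at 24 h.

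Counted over the 7 miRNAs, 1 differed between the lines at each of 0, 2, 6, 12 and 24 h and 2 at 18 h. The share over all 469 was 8.53% at the first time, then 11.3%, 15.1%, 21.7% and 29.9%, and 39.9% at the last. At 24 h, 1 of 7 was no larger a share than that of all miRNAs, with a median difference of -0.40 over the members and -0.07 over all. Within Ikaros cells, 2 of the 7 passed between 2 h and 24 h, against 28.6% of all miRNAs, and 4 between 0 h and 24 h, against 30.7%. The slope in the Ikaros line passed for 4 of 7, among them miR-146b-5p (0.021 log2 per hour, adjusted p = 0.0468, a call lost whenever 1 replicate number was left out), against 34.8%, and the difference of slopes for 2, against 22.2%. The change of the line difference from 0 h to 24 h passed for 2 of 7, against 12.37%, that from 2 h for 2, against 14.3%, and the F-test over all times for 2, against 13%. In control cells, limma called 0 of 469, or 0%, relative to 2 h, relative to 0 h and for the slope, with 33, 16 and 39 miRNAs at an unadjusted p under 0.05. No other tool was run.

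The miRNAs whose group means followed those of each member most closely were taken as a description over 12 groups that share scaling. MiR-146a-5p was closest to miR-674-3p (Pearson r = 0.93 over 12 group means, 0.73 over 36 samples), followed by miR-674-5p, the other arm of the same name (0.88), miR-199b-5p (0.87) and miR-6996-5p (0.87). It ran most opposite to miR-21a-5p (-0.90), an abundant miRNA of activated and transformed cells, and miR-181a-5p (-0.88), known for its part in early lymphocyte development. MiR-155-3p was closest to miR-130b-3p and miR-17-3p (0.92 each), miR-301b-5p (0.89) and miR-466f (0.88), and most opposite to miR-5104 and miR-5121 (-0.89 each). Over the 36 samples these likenesses were weaker, at 0.59 to 0.73 for those closest to miR-146a-5p, -0.75 for miR-21a-5p, -0.45 for miR-181a-5p, and 0.63 to 0.84 for those closest to miR-155-3p. With sample medians subtracted, r over the 12 group means was 0.88 to 0.91 for those closest to miR-146a-5p. It was -0.87 for miR-21a-5p, -0.74 for miR-181a-5p, and 0.83 to 0.89 for those closest to miR-155-3p.

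MiR-155-5p was closest to miR-30c-5p (0.91), miR-149-5p (0.90), miR-185-5p (0.85) and miR-374b-5p (0.84), and most opposite to miR-210-5p (-0.84) and miR-27b-5p (-0.78). MiR-146b-5p was closest to miR-1843a-5p and miR-7683-5p (0.86 each), then miR-93-3p and miR-669c-5p (0.85 each), and most opposite to miR-669m-3p and miR-466l-3p (-0.91 each). MiR-150-5p was closest to miR-1198-3p at 0.81, the lowest such closest value among the members. Next were miR-331-3p at 0.80, miR-3076-3p at 0.79 and miR-7655-5p at 0.74, with miR-185-3p (-0.73) and miR-98-5p (-0.69) at the other end. For miR-146a-3p the closest was miR-23b-5p (0.85), then miR-23a-5p and miR-27a-5p (0.72 each) and miR-467a-3p (0.71). Most opposite to it were miR-1933-3p (-0.82) and miR-1934-3p (-0.77). For miR-146b-3p the closest was miR-211-5p (0.87), then miR-32-3p and miR-200b-5p (0.83 each) and miR-32-5p (0.82). Most opposite to miR-146b-3p were miR-362-5p and miR-351-5p (-0.86 each). Several of the miRNAs named for their likeness to a member were low. Among them, mean log2 levels were 0.79 for miR-5104, 0.97 for miR-5121 and 1.18 for miR-7683-5p. They were 1.41 for miR-211-5p, 1.42 for miR-6996-5p and miR-1934-3p, and 1.67 for miR-23b-5p. Over the 36 samples the likeness to miR-155-5p was 0.72 for miR-30c-5p and 0.64 for miR-185-5p, but 0.33 for miR-149-5p, 0.30 for miR-374b-5p and -0.41 for miR-210-5p. It was 0.49 to 0.67 for the miRNAs closest to miR-146b-5p and 0.38 to 0.51 for those closest to miR-150-5p. For those closest to miR-146a-3p it was 0.44 to 0.64, and for those closest to miR-146b-3p 0.21 to 0.70. With sample medians subtracted, r over the group means was 0.85 to 0.93 for those closest to miR-155-5p and 0.90 to 0.92 for miR-146b-5p. It was 0.68 to 0.78 for miR-150-5p, 0.61 to 0.81 for miR-146a-3p and 0.77 to 0.81 for miR-146b-3p. For the most opposite ones of these members it ran from -0.91 to -0.54. Among the members, miR-146a-5p and miR-146b-5p had an r of 0.09 over the group means as deposited.

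Other miRNAs with known parts in immune activation were set beside the members. Of the 13 in the table, at 24 h Ikaros cells had more of 3 and less of 4, and 6 did not pass, with a median difference of -0.04 against -0.07 over all miRNAs. The share called over all 469 was 39.9% at 24 h and 8.53% at 0 h. The largest were miR-223-3p, a myeloid miRNA (2.06, adjusted p = 0.000516), and miR-22-3p (1.62, adjusted p = 4.13e-11), with miR-212-5p (-1.61, adjusted p = 0.00251) and miR-221-3p, which targets Kit and p27 (-0.94, adjusted p = 0.000132). MiR-223-3p was low, with a mean log2 level of 2.11 over all samples, whereas miR-22-3p stood at 12.66. At 0 h, 2 of the 13 passed, miR-221-3p at -0.91 and miR-21a-5p at -0.81, both lower in the Ikaros line.

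Of 24 miRNAs with known parts in B-cell development, 5 were higher and 3 lower at 24 h and 16 did not pass, with a median of -0.04, beside the same 39.9% called over all miRNAs. MiR-26a-5p (1.20, adjusted p = 1.39e-08) and miR-128-3p (1.02, adjusted p = 0.00124) were higher, and miR-34a-5p, a p53 target that represses Foxp1 (-0.90, adjusted p = 0.000103), was lower. MiR-10a-5p had the largest difference, 1.36, and did not pass (adjusted p = 0.0580). At 0 h, 2 of the 24 passed, both higher in the Ikaros line, beside 8.53% of all miRNAs. These were miR-10a-5p at 2.05 (adjusted p = 0.0166) and miR-126a-3p at 1.57 (adjusted p = 3.48e-07).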

How the data were processed

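Small RNA of 36 samples of the B3 line was sequenced. Per their methods, the authors prepared libraries with a TruSeq small RNA kit, aligned reads to miRBase mouse miRNAs with Novoalign, counted them with multiBamCov, filtered on CPM and corrected GC content with cqn, scaled with TMM, applied ComBat to the sequencing batch and took means of technical replicates. The deposited values are log2 values; the submitters' notes name mm10.

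The members and the lists were chosen with earlier results of these data known. Groups are line by time as labelled. limma 3.58.1 (R 4.3.3) fitted 12 group means to all 36 samples with a mean-variance trend, with Benjamini-Hochberg adjustment over 469 miRNAs and a threshold of 0.05. Slopes used the 5 times from 2 h to 24 h. Named besides the members were, for each, the 4 miRNAs with the highest and the 2 with the lowest correlation over the group means, and up to 4 per list by the size of the 24 h difference, and any list miRNA called at 0 h, which was chosen after its values were seen. Pairing comes from the labelled culture batch: within a time, the correlation of deviations of same-numbered samples of both lines was 0.06 to 0.41. The alternatives are given in the closing section. Sequences came from RefSeq (GRCm38.p6) and hairpin positions from GENCODE vM21, matched by name, with Python 3.11.15, numpy 2.4.6, pandas 2.3.3 and matplotlib 3.10.9. The code was tested on simulated data.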

Additional observations from a re-analysis of the deposited data

Results flagged for a closer look

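MiR-146a-5p and miR-155-3p were singled out because their difference between the lines changed with time by a direct test. For miR-146a-5p the line difference at 24 h had changed by -1.29 relative to 0 h (adjusted p = 0.00374) and by -1.09 relative to 2 h (adjusted p = 0.0133), the slopes differed by -0.057 log2 per hour (adjusted p = 0.000676), and the moderated F-test over the 6 times gave an adjusted p of 0.00130. For miR-155-3p the same values were -1.15 (adjusted p = 0.0315), -1.26 (adjusted p = 0.0179), -0.055 (adjusted p = 0.00530) and 0.0132. All tests were limma fits adjusted over 469 miRNAs. In miR-146a-5p the line difference was 1.36 at 0 h and 0.07 at 24 h, and in miR-155-3p it was -0.19 at 0 h and -1.34 at 24 h. The comparisons with 0 h run across culture batches in both lines, whereas those with 2 h do not. Those with 2 h, the slopes and the F-test include times at which sequencing batch went with line. To that extent they rest on the correction made by the authors.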

How the results depend on the processing

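Over 1081 recomputed values of the members, 1003 kept their side of the threshold, 60 lost the threshold and 18 gained it. Most of the 1081 belonged to results that were uncalled as reported, so the 60 losses fell on the smaller, called part. The sign turned in 52 of the 1020 signed values, all of them uncalled, and in 0 of those called. The line differences of miR-146a-5p at 0 h and 2 h and of miR-155-3p at 24 h, the fall of both within Ikaros cells between 2 h and 24 h, and the slope difference of miR-146a-5p (adjusted p up to 0.0312) held in every alternative.

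With sample medians subtracted, the 24 h line difference of miR-146b-5p was 0.62 and its slope difference 0.033 (both gained), the rise of miR-155-5p from 2 h in the Ikaros line 0.65 (gained), and the change of the line difference -0.997 from 0 h and -1.04 from 2 h for miR-155-3p and -0.87 from 2 h for miR-146a-5p (all lost). With quantile normalization the changes of miR-155-3p were -1.12 and -1.13 (lost) and the rise of miR-155-5p 0.50 (gained), and the low 3p arms passed at 12 h (miR-146a-3p -0.87, miR-146b-3p -0.90). With only the compared groups fitted, miR-155-3p from 0 h (-1.15, adjusted p = 0.0584) and miR-146a-5p from 2 h (-1.09) lost the call. With a mean log2 of at least 2 (which drops both miR-146 3p arms) and with the replicate block of culture batch, the rise of miR-155-5p, 0.45, passed. With that minimum level, miR-155-3p at 18 h passed as well (-0.64, adjusted p = 0.0398). It also passed when limma was run without the mean-variance trend (adjusted p = 0.0470). In that setting the rise of miR-155-5p from 0 h in the Ikaros line lost its call (adjusted p = 0.0563). So did the slope of miR-146b-5p in the Ikaros line (adjusted p = 0.0508). The block also let the slope difference of miR-150-5p pass (-0.046). Values from the block were otherwise on the same side of the threshold, apart from miR-146a-5p at 12 h, miR-155-3p at 18 h and miR-146a-3p from 0 h and over the 6 times (adjusted p = 0.0384). With linear totals made equal, a setting chosen after seeing the data, miR-155-3p gave -1.19, -1.37, -0.055 per hour and an F-test adjusted p of 0.243 (all lost), and miR-146a-5p at 6 h gave 0.74 (adjusted p = 0.0558). The cause of these shifts was not tested.

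Leaving out replicate 1, 2 or 4 in turn, which leaves 2 samples per group, gave for miR-146a-5p -1.36 to -1.19 from 0 h (adjusted p = 0.0155 to 0.0950), -1.11 to -1.07 from 2 h (0.0629 to 0.127) and an F-test adjusted p of 0.0148 to 0.135. For miR-155-3p it gave -1.21 to -1.08 (0.0810 to 0.265), -1.44 to -0.99 (0.0402 to 0.288), -0.063 to -0.044 per hour (0.0182 to 0.187) and 0.0654 to 0.576. The rise of miR-155-5p from 2 h was 0.18 to 0.70. Without replicate 2, miR-146a-5p at 6 h was 0.86 (adjusted p = 0.0961).

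Counts over all 469 miRNAs ranged over the alternatives from 22 to 50 at 0 h (40 as reported), 16 to 62 at 2 h (53), 22 to 70 at 6 h (71), 18 to 106 at 12 h (102), 69 to 159 at 18 h (140), 110 to 193 at 24 h (187), 12 to 74 (58) and 19 to 75 (67) for the changes from 0 h and 2 h, 11 to 66 (61) for the F-test, and 45 to 108 (104) for the slope difference. Within the Ikaros line they ranged from 54 to 144 from 2 h (134), 56 to 152 from 0 h (144) and 81 to 169 for the slope (163). The table gives no counts, so what depth limits cannot be computed, and the lowest member, miR-146a-3p, rests partly on values that repeat between samples.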
